A study of Mus musculus with 4 samples.

Results

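The replication-dependent histone genes were taken as every gene of the deposited tables whose symbol begins with Hist1h, Hist2h, Hist3h or Hist4h. That rule found 67 of 32285 genes: 6 of the H1 family, 18 of H2A, 18 of H2B, 12 of H3 and 13 of H4. Of these, 54 carry the Hist1 prefix, 10 Hist2, 2 Hist3 and 1 Hist4. They were counted in single-cell libraries of mouse bone marrow cells that carried CD45.2 and Kit, collected 10 weeks after transplantation and read with 10x Genomics 3′ capture together with antibody barcodes. Each of 4 groups was 1 library: a control, Mll3SI, Mll4SI and the double Mll3/4SI. Sets of 4 values follow the order control, Mll3SI, Mll4SI, Mll3/4SI throughout. The labels name the same libraries wt, mll3KI, mll4KI and dKI and do not spell out SI. The donor animals, any Cre driver, the recipients and what the 2 hashtag antibodies marked are not given in the sources used here. Kit was read at 112, 100.2, 101 and 109 CPM (unique molecular identifiers, UMIs, of the gene per 1000000 UMIs of all genes), and Ptprc, which encodes CD45, at 222, 179, 312 and 211 CPM.

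Replication-dependent histone genes supply the histones that package newly made DNA, and their transcripts accumulate in S phase and are degraded when DNA synthesis stops. Most of their mRNAs end in a conserved stem-loop, bound by SLBP, in place of a poly(A) tail, and transcription at the clustered genes is coordinated by NPAT, a substrate of cyclin E and CDK2. H2A, H2B, H3 and H4 form the core of the nucleosome and H1 binds the linker DNA. MLL3 and MLL4, encoded by Kmt2c and Kmt2d, are the COMPASS-family proteins that methylate lysine 4 of histone H3 at enhancers, and the study's title asks how far they share a role in stem cell and myeloid identity. Because 3′ capture primes on poly(A), the copies that are polyadenylated or hold an A-rich stretch can be over-represented, so levels of different genes below are an order of captured 3′ ends and not of transcripts.

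The stem-loop is shown for 1 copy of each family, since mRNAs that end at it lack the poly(A) tail used for capture. In the order shown, the annotated models run 1153, 151, 23, 74 and 770 bases past it, so it is not their end. The 16 bases in capitals are the stem-loop, with 7 bases on each side, read 5′ to 3′ from the GENCODE M21 transcripts:
Hist1h1e: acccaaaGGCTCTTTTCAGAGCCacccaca
Hist1h2ae: aaacaaaGGCTCTTTTCAGAGCCattcact
Hist1h2bb: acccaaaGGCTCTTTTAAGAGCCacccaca
Hist1h3c: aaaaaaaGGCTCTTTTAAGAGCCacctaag
Hist1h4d: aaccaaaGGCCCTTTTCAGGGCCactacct
A stem-loop of this form stood in the annotated transcripts of 46 of the 67 members. Among the members without it, 13 had a model with 0 bases of 3′ untranslated sequence, Hist1h1b among them. The poly(A) signal AATAAA stood in the 3′ untranslated part of 19 members. The median captured level was 10.6 CPM with a stem-loop in the model and 10.6 CPM without, and 7.65 CPM with AATAAA against 13.7 CPM without.

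Most members also share promoter letters. In the RefSeq promoter table (GRCm38.p6, 250 bases before to 50 bases after a start, 62 members matched), CCAAT on either strand stood in 85.5% of member promoters, which were all those of H1, H2A, H2B and H3 and 25% of those of H4, against 37.9% of 27025 promoters of all genes. TATAAA stood in 56.5% against 14.2%. ATTTGCAT, the octamer bound by POU proteins such as Oct-1, stood in 20.97% against 1.75%, in 7 H2A and 6 H2B promoters. Some H2A and H2B promoter stretches overlap, as those of Hist1h2ah and Hist1h2bk do, so the same site can be counted for both genes. The 3 motifs share no letters in the stretches printed here. For an H2A and an H4 gene that were both higher in Mll3/4SI, the 250 bases before the start are shown with CCAAT (or ATTGG, its complement), TATAAA and ATGCAAAT (the complement of the octamer) in capitals. They lie on the plus strand at chr13:23750838-23751087 and chr13:23581318-23581567:
Hist1h2ab: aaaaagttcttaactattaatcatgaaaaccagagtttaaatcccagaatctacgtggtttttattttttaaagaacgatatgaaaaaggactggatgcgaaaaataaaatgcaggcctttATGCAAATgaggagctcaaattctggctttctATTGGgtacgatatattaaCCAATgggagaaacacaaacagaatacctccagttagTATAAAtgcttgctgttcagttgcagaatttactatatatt
Hist1h4d: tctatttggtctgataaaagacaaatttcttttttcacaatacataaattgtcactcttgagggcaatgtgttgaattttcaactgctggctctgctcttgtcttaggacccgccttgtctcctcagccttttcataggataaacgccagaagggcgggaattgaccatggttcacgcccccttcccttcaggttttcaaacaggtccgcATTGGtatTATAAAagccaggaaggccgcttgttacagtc
In Hist1h2ab the octamer begins 129 bases, the CCAAT motifs 97 and 78 bases and TATAAA 41 bases before the start. In Hist1h4d the CCAAT motif begins 40 bases and TATAAA 32 bases before it. The median log2 ratio to control in Mll3/4SI was 0.46 for members with CCAAT and 0.36 for those without, 0.45 and 0.53 for TATAAA, and 0.52 and 0.45 for the octamer.

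Cells of low quality and a set share of cells with the highest doublet scores were removed. This kept 6743, 8023, 10186 and 6755 cells in the 4 libraries, with medians of 16973, 13603, 12800 and 19185 UMIs per cell. Pairs of libraries shared 16 to 29 cell barcodes. Control and Mll3SI held Y-linked transcripts (Ddx3y at 41.3 and 41.7 CPM) and Mll4SI and Mll3/4SI held Xist (1148 and 1360 CPM), so that this split and the Mll4SI allele cannot be told apart. Kmt2c was read at 130, 110, 147 and 123 CPM and Kmt2d at 41.3, 38.0, 35.1 and 33.3 CPM. Kmt2d was lower in both libraries with the Mll4SI allele, and these levels do not check the alleles. Clusters in which more than 80% of cells came from 1 library held 52.2% of the Mll4SI and 63.9% of the Mll3/4SI cells, mostly granulocyte-like. Sums are also given for the 7 clusters with at least 100 cells of every library. That choice leaves out these clusters and others, among them clusters 4 and 13 with 947 and 1497 control cells. With 1 library per group there is no test between groups; intervals are exact 95% Poisson intervals and cover counting error only.

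Histone transcripts made up 3529, 3180, 3376 and 4820 CPM, from 447824, 392588, 495686 and 685172 histone UMIs. Mll3/4SI was the highest and Mll3SI the lowest. The log2 ratio to control was 0.45 (0.44 to 0.46) in Mll3/4SI and -0.15 (-0.16 to -0.14) in Mll3SI. For Mll4SI it was -0.06 by CPM but 0.09 when libraries were scaled by the median of gene ratios, so its direction depended on the scaling; the median of all genes tested was -0.13 in that library. A gene is counted below as higher or lower where its log2 ratio of CPM + 1 reached 0.5 in size, among genes with a mean of at least 1 CPM. This minimum was met by 61 members; Hist2h3c2, Hist1h1t, Hist2h2aa2 and Hist1h2bq were under it, and Hist1h2ba and Hist1h2aa had no UMI in any library.

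In Mll3/4SI, 28 of the 61 members were higher and 1 was lower, where 4.48% of the 12300 genes were higher and 4.34% lower. Of the 61, 57 stood above control, and their median log2 ratio was 0.47 against -0.05 for all genes. In Mll3SI 1 member was higher (1.0% of all genes) and 2 were lower (2.01%), and 44 of the 61 stood below control with a median of -0.14. The higher one was Hist1h4n (0.92) and 1 of the lower ones Hist1h4m (-2.86). They are near-identical copies, described last, whose sum was 12.9 CPM in control and 13.4 CPM in Mll3SI. In Mll4SI 2 were higher (3.72%) and 1 was lower (8.63%), with a median of -0.09 against -0.13 for all genes. The Mll3SI and Mll4SI counts were thus near or below the shares of all genes. These comparisons share the control library.

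**Figure D1:**
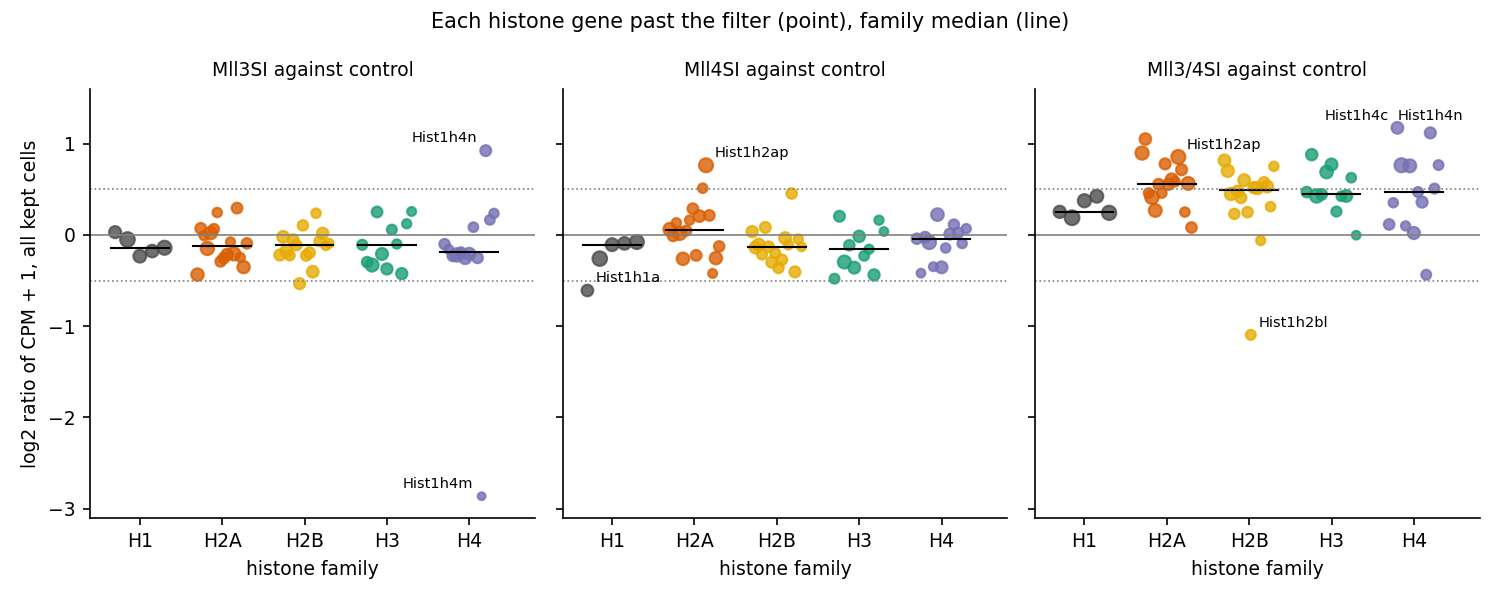
Log2 ratio to control (CPM + 1) of each histone gene that met the minimum, in all kept cells, by family, in panels for Mll3SI, Mll4SI and Mll3/4SI; a point is a gene, the solid line the family median and the dotted lines 0.5 and -0.5. In Mll3/4SI the family medians run from 0.25 in H1 to 0.56 in H2A, and Hist1h2bl lies far below the other H2B genes.

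The linker histone genes held the largest share of histone UMIs in every library, at 48.3%, 50.3%, 44.1% and 41.6%. Hist1h1b (chr13:21779883-21780625, minus strand), the most captured member, was read at 970, 937, 811 and 1106 CPM. Hist1h1e was read at 478, 434, 453 and 566 CPM. Mll3/4SI was the highest library for both, by log2 ratios of 0.19 and 0.24 that did not reach the fold. Hist1h1c followed at 122, 103, 113 and 158 CPM, with the same library highest (0.38). Hist1h1a, the least captured of these 4, was read at 43.8, 44.8, 28.4 and 52.4 CPM and passed the fold in Mll4SI, where it was lower (-0.61). All 5 H1 genes that met the minimum stood above control in Mll3/4SI, and the H1 sum was 1703, 1599, 1489 and 2003 CPM.

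H2A genes, whose products pair with H2B in the nucleosome, were summed to 806, 707, 956 and 1267 CPM. Of the 16 that met the minimum, 10 were higher in Mll3/4SI (4.48% of all genes). All 16 stood above control, with a median of 0.56 against -0.05 for all genes. Hist1h2ap (chr13:21833026-21833507, minus strand), the most captured core histone gene by the mean over libraries, was read at 236, 205, 402 and 428 CPM. It was higher in both libraries with the Mll4SI allele, by 0.76 in Mll4SI and 0.86 in Mll3/4SI, and below control in Mll3SI (-0.21). Without it the H2A sum in Mll4SI went from 0.25 to -0.04 by CPM and stood at 0.11 with median-of-ratios scaling; it stayed above control in HSC/MPP-like (0.25) and erythroid-like cells (0.20). Its sequence is shared: 93.1% of its 50-base windows also occur in other genes, chiefly Hist1h2ao, so the assignment of its reads rests on few bases.
Hist1h2ab (chr13:23751126-23751598, plus strand) was read at 96.6, 71.2, 101 and 181 CPM. Mll3/4SI stood far above the other 3 libraries (0.90), and Mll3SI below them (-0.43). Hist1h2ae, the H2A gene nearest to Hist1h2ap in captured level, was read at 211, 190, 213 and 281 CPM, with Mll3/4SI highest (0.41) and short of the fold. Among the less captured copies Hist1h2ai was read at 8.79, 7.01, 10.96 and 15.8 CPM, and Hist2h2aa1, from the Hist2 cluster, at 8.87, 11.1, 10.5 and 15.2 CPM. Both were highest in Mll3/4SI (0.78 and 0.72), but 90.1% and 100% of their 50-base windows occur in other genes. Hist1h2ao, the copy that shares Hist1h2ap's sequence, was read at 1.82, 1.68, 3.02 and 3.23 CPM, in the same order of libraries as Hist1h2ap.

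H2B genes were summed to 259, 228, 237 and 372 CPM. Of the 16 that met the minimum, 8 were higher in Mll3/4SI (4.48% of all genes), with a median of 0.50 against -0.05. Hist1h2bc (chr13:23684199-23692908, plus strand), a longer gene model, was read at 36.3, 35.8, 32.9 and 59.8 CPM (0.70 in Mll3/4SI). Its difference was unequal between hashtags. Mll3/4SI stood at 50.3 against 38.4 CPM in control in Hashtag1 cells, and at 68.2 against 34.5 CPM in Hashtag2 cells. Hist1h2be was read at 45.1, 39.8, 41.8 and 61.9 CPM, but its model overlaps Hist1h1e on the same strand, so that reads of the overlap are uncertain. Hist1h2bn was read at 38.4, 28.8, 37.5 and 55.4 CPM and Hist1h2bj at 23.7, 16.1, 19.1 and 36.5 CPM. For both, Mll3/4SI was the highest library and Mll3SI the lowest, and Hist1h2bj passed the fold in each (0.60 and -0.53). Of their 50-base windows, 86.4% and 59.4% occur in other genes.
Hist1h2br, which lies beside Hist1h2ap, was read at 6.19, 5.86, 8.85 and 9.72 CPM, in Hist1h2ap's order of libraries, and Hist1h2bp at 2.44, 3.06, 2.19 and 2.30 CPM.
Hist1h2bl (chr13:21715763-21716143, minus strand) went the other way. It was read at 11.6, 9.78, 8.81 and 4.90 CPM, from 1471, 1207, 1293 and 696 UMIs. Mll3/4SI was the lowest library, and the log2 ratio of plain CPM lay between -1.38 and -1.11. It was the 1 member past the fold on the low side in Mll3/4SI, and 82.8% of its 50-base windows occur in other genes.

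H3 genes were summed to 303, 250, 252 and 440 CPM. Of the 11 that met the minimum, 4 were higher in Mll3/4SI (4.48% of all genes), with a median of 0.45 against -0.05. Hist1h3c (chr13:23744973-23745602, minus strand), the most captured H3 gene, was read at 167, 133, 136 and 225 CPM. Hist1h3e was read at 48.4, 41.8, 37.6 and 78.7 CPM and Hist1h3f at 24.8, 19.0, 24.6 and 43.1 CPM. Mll3/4SI was highest for all 3 genes, by 0.43, 0.69 and 0.77, and both single-allele libraries stood at or below control. Hist1h3i was read at 25.2, 18.5, 18.3 and 34.2 CPM and Hist1h3a at 6.52, 5.98, 4.39 and 9.41 CPM, both lowest in Mll4SI. Hist1h3d, at 9.35, 11.3, 8.57 and 13.1 CPM, stood above control in Mll3SI as well (0.25). That held in Hashtag1 cells (13.6 against 8.09 CPM in control) and not in Hashtag2 cells (9.47 against 10.6 CPM). In Mll3/4SI it was read at 8.95 CPM in Hashtag1 cells and 16.6 CPM in Hashtag2 cells. Hist2h3c1, close to the minimum at 1.01, 1.40, 1.06 and 1.01 CPM, was the 1 H3 gene that did not stand above control in Mll3/4SI.

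H4 genes, whose copies encode the same protein, were summed to 458, 396, 442 and 738 CPM. Of the 13, 6 were higher in Mll3/4SI (4.48% of all genes), with a median of 0.47 against -0.05. Hist1h4d (chr13:23581598-23582735, plus strand), the most captured H4 gene, was read at 277, 238, 262 and 471 CPM. Hist1h4h was read at 71.2, 59.7, 83.3 and 121 CPM. Both were higher in Mll3/4SI, each by 0.76. Hist1h4c (chr13:23697635-23698454, minus strand) had the largest log2 ratio of any member in Mll3/4SI, 1.17: it was read at 13.2, 11.1, 12.96 and 31.0 CPM, and the plain ratio lay between 1.15 and 1.32. The other 3 libraries lay between 11.1 and 13.2 CPM. Hist1h4i, in contrast, was read at 49.3, 42.6, 38.3 and 50.1 CPM, with a log2 ratio of 0.02 in Mll3/4SI. Hist4h4, the Hist4 gene, was read at 2.05, 2.59, 2.20 and 4.19 CPM, with Mll3/4SI highest (0.77). In Hashtag1 cells Mll3SI was highest instead, at 3.59 CPM against 2.72 in Mll3/4SI and 1.78 in control. In Hashtag2 cells Mll3/4SI held 5.44 CPM against 2.29 in control.

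The Mll3/4SI ratios were unequal between families, and the mix of histone UMIs differed. H4 took 12.96%, 12.5%, 13.1% and 15.3% of histone UMIs, and H2A 22.8%, 22.2%, 28.3% and 26.3%. The log2 ratio of the family sums in Mll3/4SI was 0.23 for H1, 0.65 for H2A, 0.52 for H2B, 0.54 for H3 and 0.69 for H4. In Mll3SI all 5 were below control, from -0.09 in H1 to -0.28 in H3. In Mll4SI H2A stood above control (0.25) and the other 4 below it (-0.05 to -0.26), though H2B and H4 turned to 0.02 and 0.10 with median-of-ratios scaling.

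**Figure D2:**
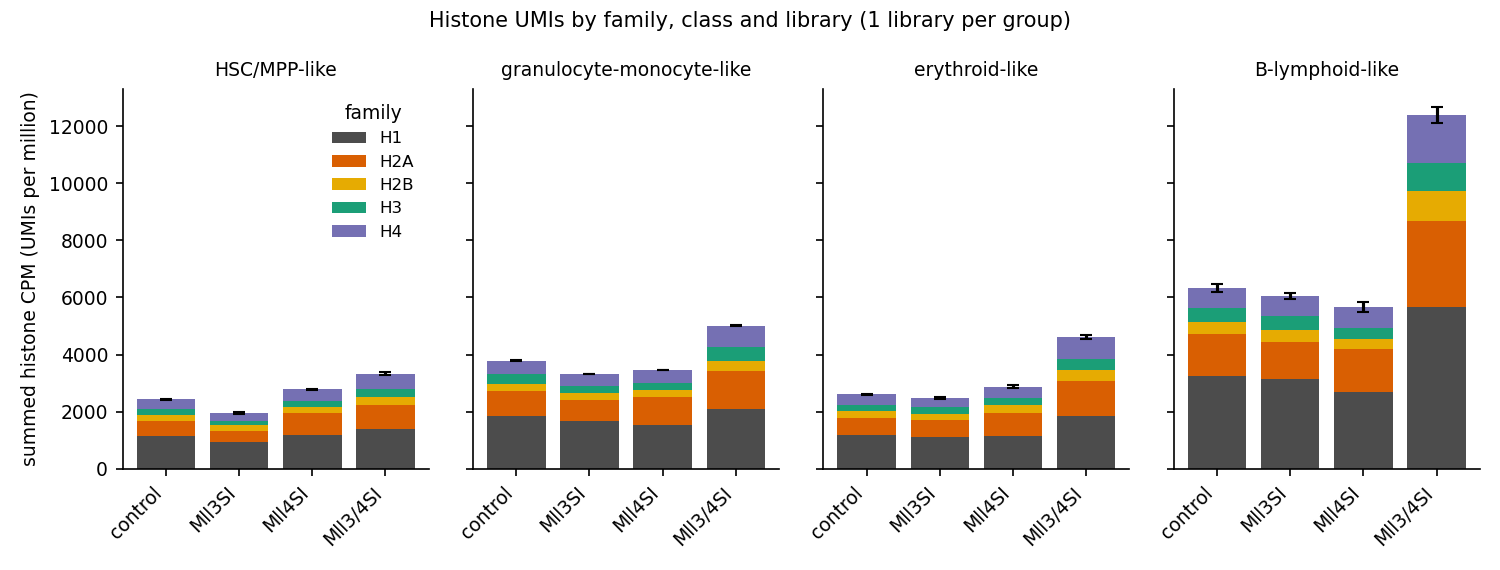
Summed histone CPM of each library in HSC/MPP-like, granulocyte-monocyte-like, erythroid-like and B-lymphoid-like cells, stacked by family, with the 95% Poisson interval of the total. Mll3/4SI is the tallest bar in each of the 4 classes, and B-lymphoid-like cells reach 12388 CPM.

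Cells were clustered jointly without the histone genes and named by markers, so that the sums could be read within classes. The HSC/MPP-like class, named for markers of stem cells and multipotent progenitors, of which 8 were met, had 769, 755, 630 and 280 cells. Histone transcripts there summed to 2434, 1949, 2779 and 3328 CPM. Mll3SI was below control (-0.32), Mll4SI above it (0.19) and Mll3/4SI highest (0.45, interval 0.43 to 0.48). Of 61 members, 24 were higher in Mll3/4SI (4.27% of all genes) and 1 was lower (4.56%), with 54 above control and a median of 0.44 against -0.05. In Mll4SI 7 were higher (5.06%) and 1 was lower (5.43%), with a median of 0.20. In Mll3SI 1 was higher (2.42%) and 7 were lower (2.0%), with 49 below control and a median of -0.27. The higher member there was Hist1h4n, and its near-identical copy Hist1h4m was among the lower ones. These counts moved with how the class was drawn. At a finer clustering (Leiden resolution 2) 22 members were lower in Mll3SI and 49 higher in Mll3/4SI. In Mll3/4SI 48 were higher without doublet removal and 41 with cells named by their nearest control cells. The share of all genes past the fold is not given for these redrawn classes, so these counts lack that measure.

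In HSC/MPP-like cells Hist1h2ap was read at 142, 91.6, 287 and 234 CPM, lower in Mll3SI (-0.63) and higher in Mll4SI and Mll3/4SI (1.01 and 0.72). Hist1h4d was read at 188, 159, 219 and 333 CPM, and Hist1h2ab at 59.4, 40.0, 74.9 and 109 CPM. In both, Mll3/4SI was highest and Mll3SI lowest. Hist1h2ai, at 6.36, 4.74, 10.1 and 16.2 CPM, had the largest ratio in Mll3/4SI (1.22), followed by Hist1h4n (4.01, 7.49, 6.13 and 10.2 CPM, 1.16) and Hist1h4c (10.7, 8.74, 12.4 and 23.5 CPM, 1.07). Hist1h4n and its near-identical copy Hist1h4m together summed to 8.28, 7.49, 10.7 and 13.7 CPM. Hist1h2bj was read at 19.1, 10.2, 18.5 and 28.7 CPM, with Mll3SI lowest (-0.84). Hist1h4h was read at 44.5, 34.5, 69.1 and 76.9 CPM, higher in both libraries with the Mll4SI allele. Hist1h2bl was again lowest in Mll3/4SI, at 7.72, 7.16, 7.89 and 3.66 CPM (-0.90). The 1 member lower in Mll4SI was Hist1h4b, at 2.35 CPM in control and 1.07 in Mll4SI.

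These HSC/MPP-like directions changed with depth. Among cells of 10000 to 20000 UMIs (318, 432, 300 and 94 cells), the sum was 1064, 1546, 1418 and 950 CPM, so that Mll3SI stood above control (0.54) and Mll3/4SI below it (-0.16). The G2/M list moved with it in Mll3SI and Mll3/4SI, at 1791, 2834, 1752 and 1000 CPM, and their part in the result was not tested. Among cells of 20000 to 40000 UMIs (375, 175, 264 and 152 cells), the sum was 3163, 2859, 3665 and 4045 CPM, in the order seen over the class. The Mll3/4SI ratio was larger under other ways of drawing the class, 0.64 with cells named by their nearest control cells, 0.77 at a finer clustering, 0.72 without doublet removal and 0.76 with a stricter cell filter, where it held 995, 814, 1050 and 997 Mll3/4SI cells. At the finer clustering, 680 of the 814 were in a cluster of 682 cells led by Angpt1, Arhgap6, Cpa3 and Fcer1a. In the clustering used elsewhere, a cluster of 862 cells led by Cpa3 and Fcer1a was unnamed and outside the class. It held 859 Mll3/4SI cells, at 4130 CPM. The larger ratios thus come from a different set of Mll3/4SI cells, and the part of these cells in them was not tested.

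Granulocyte-monocyte-like cells numbered 5251, 6514, 9052 and 5278, and their histone transcripts summed to 3790, 3318, 3460 and 5015 CPM. Mll3/4SI was highest (0.40), and Mll3SI and Mll4SI were below control (-0.19 and -0.13). Among cells of 20000 to 40000 UMIs the sums were 2722, 2871, 3496 and 4204 CPM, so that Mll3SI (0.077) and Mll4SI (0.36) stood above control, and Mll4SI also did when weighted to the S-phase or G2/M quartile shares of control (0.084 and 0.097). Of 60 members, 23 were higher in Mll3/4SI (4.09% of all genes) and 1 was lower (3.62%), with 55 above control. At the finer clustering 35 and without doublet removal 38 were higher, counts given without the share of all genes at those settings. In Mll4SI 1 was higher (3.92%) and 3 were lower (6.84%), and in Mll3SI 1 was higher (0.958%) and 2 were lower (1.58%). The higher member in Mll3SI was Hist1h4n, and Hist1h4m was among the lower ones. Hist1h4d was read at 299, 246, 268 and 493 CPM, Hist1h2ap at 260, 221, 419 and 467 CPM, and Hist1h2ab at 105, 74.0, 105 and 193 CPM. All 3 were highest in Mll3/4SI, and Hist1h2ap was the 1 member higher in Mll4SI. Hist1h1a (36.3, 37.6, 22.6 and 39.5 CPM), Hist1h3a (5.95, 5.56, 3.73 and 7.88 CPM) and Hist1h3i (27.9, 19.7, 19.0 and 36.5 CPM) were the 3 that were lower in Mll4SI. Hist1h2bl was lower in Mll3/4SI by 1.29 on the log2 scale, at 12.5, 9.92, 8.90 and 4.54 CPM.
Different clusters held most of this class in different libraries: clusters 7, 11 and 12 were nearly all Mll4SI, at 266, 4898 and 7489 CPM, and clusters 9, 10 and 14 nearly all Mll3/4SI, at 6964, 6778 and 2729 CPM. Although histone genes were left out of the clustering, Hist1h2ap stood among the 10 leading genes of cluster 12, and Hist1h3c and Hist1h4d among those of cluster 10. Restricted to clusters with at least 100 cells of every library, the class gave log2 ratios of 0.0054, -0.39 and 0.39 for the 3 SI libraries, pooled over clusters that hold different shares of each library. By the mean over cells, the H2A sum of this class in Mll4SI changed from 0.18 to -0.11.

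Erythroid-like cells, 416, 435, 230 and 130 in number, gave 2601, 2480, 2875 and 4607 CPM, with Mll3/4SI highest (0.82). Of 61 members, 40 were higher in Mll3/4SI (6.54% of all genes) and 1 was lower (7.71%), with a median of 0.68. In Mll4SI 9 were higher (9.13%) and 2 were lower (5.51%), and in Mll3SI 3 were higher (4.99%) and 2 were lower (3.95%). The higher members in Mll3SI included Hist1h4n and the lower ones Hist1h4m. In Mll3/4SI 4 of 5 H1 genes passed the fold, among them Hist1h1b at 702, 664, 656 and 1084 CPM (0.63). Hist1h4d was read at 205, 196, 232 and 494 CPM and Hist1h2ab at 70.3, 62.6, 79.6 and 178 CPM, both with Mll3/4SI above the others (1.26 and 1.33). Hist1h2bl, at 8.50, 9.99, 9.11 and 7.74 CPM, was within 0.21 of control in all 3 libraries in this class. Hist1h4b, at 2.41, 3.23, 1.69 and 0.968 CPM, was the 1 lower member in Mll3/4SI.
B-lymphoid-like cells had the highest sums, 6327, 6049, 5655 and 12388 CPM from 73, 183, 42 and 37 cells. Mll3/4SI stood at 0.97, and the family ratios ran from 0.80 in H1 to 1.30 in H4. Hist1h4c reached 72.6 CPM there against 14.7 CPM in control. The G2/M list was also higher in Mll3/4SI in both classes, 5280 against 4375 CPM in erythroid-like and 9964 against 8069 CPM in B-lymphoid-like cells, and its part in the result was not tested.

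**Figure D3:**
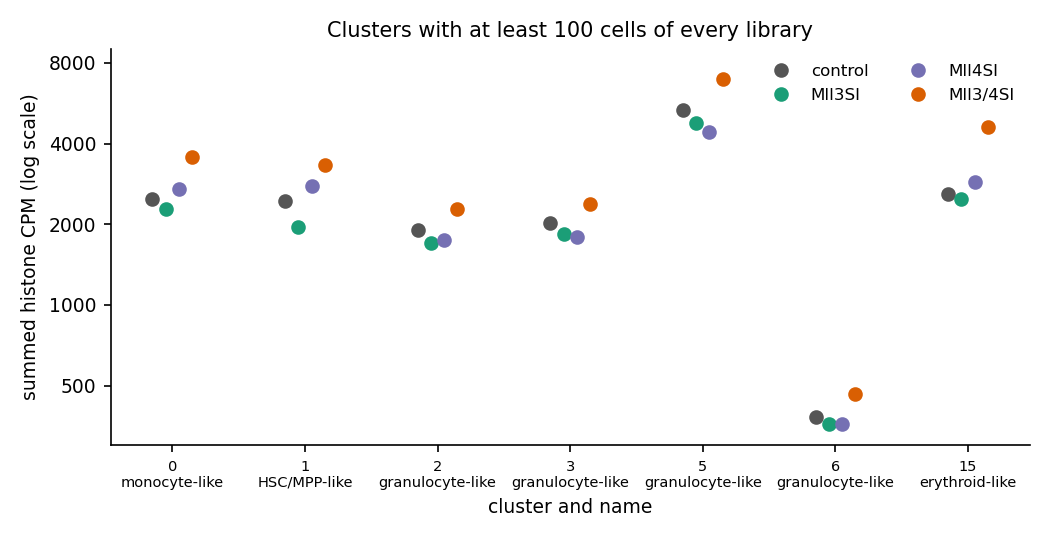
Summed histone CPM (log axis) of each library in the 7 clusters that held at least 100 cells of every library. In each cluster Mll3/4SI is the highest and Mll3SI is below control.

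In the 7 clusters with at least 100 cells of each library (1 monocyte-like, 1 HSC/MPP-like, 4 granulocyte-like and 1 erythroid-like), Mll3SI was below control in 7, by -0.07 to -0.32, and Mll3/4SI above it in 7, by 0.23 to 0.82. Mll4SI stood above control in the monocyte-like, HSC/MPP-like and erythroid-like clusters and below it in the 4 granulocyte-like ones. Levels differed far more between clusters than between libraries: granulocyte-like cluster 6, led by Ifitm6 and Lyz2, held 359 to 466 CPM, and cluster 5, led by Fcnb and Camp, held 4419 to 6967 CPM.

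Against the Mll4SI library, which does not share the Y-linked reads of control, Mll3/4SI was higher by 0.51 in all kept cells (0.51 to 0.52), and by 0.26, 0.54 and 0.68 in the HSC/MPP-like, granulocyte-monocyte-like and erythroid-like classes. In all kept cells 35 of 61 members were higher (7.64% of all genes) and 2 were lower (4.59%), and their median was 0.53 against 0.08. In HSC/MPP-like cells 15 were higher (5.86%) and 1 was lower (6.21%). In granulocyte-monocyte-like cells 34 of 60 were higher (6.15%) and 2 were lower (4.31%). In erythroid-like cells 35 were higher (7.78%) and 0 were lower (12.2%).
Most cells of each library carried 1 of 2 hashtags, which split it into parts of like size and are not replicates as far as the labels say. Hashtag by hashtag, the Mll3/4SI ratio was 0.51 and 0.40 in all kept cells. It was 0.50 and 0.36 among HSC/MPP-like cells, and 0.46 and 0.35 among those of the granulocyte-monocyte-like class. Of the 61 members, 53 stood above control in both parts and Hist1h2bl, Hist1h2bp and Hist1h4m below it in both; 17 were past the fold on the high side in both, where 2.38% of all genes were. In Mll3SI the HSC/MPP-like ratio was -0.17 and -0.55. Among erythroid-like cells the ratio was 0.59 and 1.17 in Mll3/4SI (78 and 46 cells), -0.11 and 0.04 in Mll3SI, and -0.0013 and 0.43 in Mll4SI.

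Because these transcripts follow DNA synthesis, cells were thinned to 5000 UMIs and ordered by 2 lists that hold no member, 30 S-phase genes (such as the MCM helicases and Pcna) and 30 G2/M genes (such as Top2a and Cdk1). Neither list was highest in Mll3/4SI. The S-phase list summed to 2501, 2653, 1969 and 2209 CPM, and the G2/M list to 5333, 5466, 4861 and 4757 CPM. Cells in the bottom S-phase quartile were 18.6%, 13.3%, 41.1% and 22.2% of each library.

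**Figure D4:**
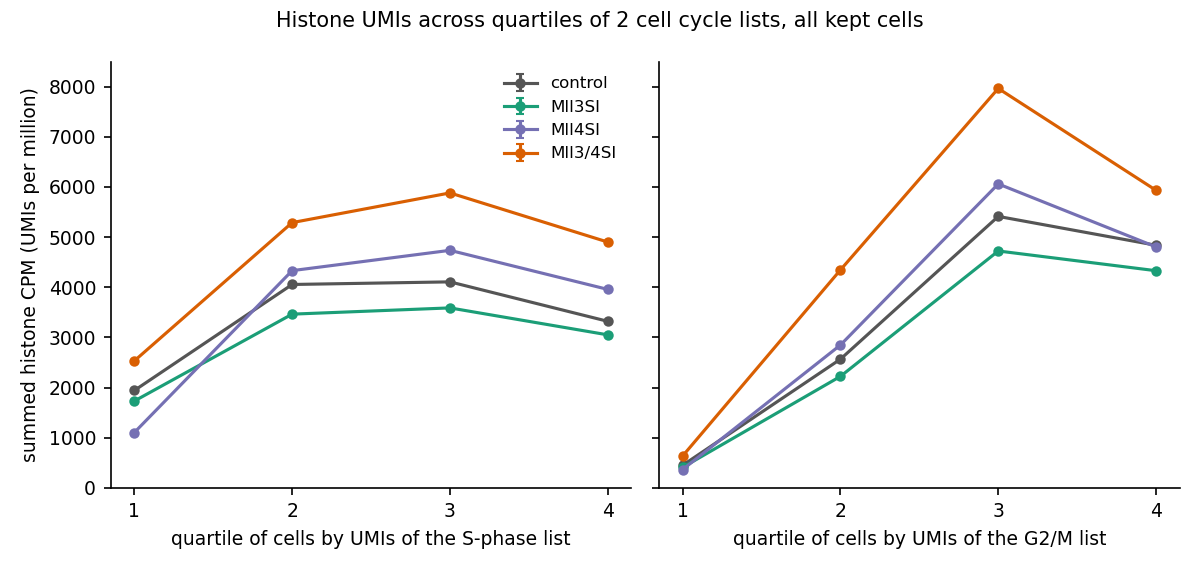
Summed histone CPM of each library over the quartiles of the S-phase list and of the G2/M list, set over the pooled cells thinned to 5000 UMIs. Mll3/4SI is the highest line in each quartile; its peak is 7963 CPM in G2/M quartile 3.

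Histone sums did not grow evenly with the S-phase list. From its bottom to its top quartile, the quartiles held 1941, 4054, 4106 and 3320 CPM in control and 1731, 3463, 3587 and 3050 CPM in Mll3SI. Mll4SI gave 1103, 4330, 4735 and 3956 CPM, and Mll3/4SI 2531, 5288, 5880 and 4900 CPM. Mll3/4SI was the highest library in each quartile, by log2 ratios of 0.38, 0.38, 0.52 and 0.56, and Mll3SI was below control in each. Mll4SI was below control in the bottom quartile (-0.82) and above it in the other 3 (0.10, 0.21 and 0.25). The libraries were not matched within the bottom quartile, where thinned cells held means of 1.59, 1.72, 1.02 and 1.56 S-phase list UMIs. Over the G2/M quartiles control gave 450, 2566, 5412 and 4836 CPM and Mll3/4SI 635, 4345, 7963 and 5931 CPM, a range of log2 ratios from 0.29 to 0.76. With every library weighted to the quartile shares of control, the sum in all kept cells was -0.18, 0.12 and 0.48 for Mll3SI, Mll4SI and Mll3/4SI by the S-phase list, and -0.18, 0.09 and 0.52 by the G2/M list. The weighting turned the Mll4SI direction in all kept cells. In HSC/MPP-like cells Mll4SI stood above control without it (0.19) and with it (0.22 and 0.11). In the bottom G2/M quartile of all kept cells the list means were 2.88, 2.95, 1.71 and 2.30 UMIs. Weighting does not remove such differences within a quartile, and their part in the result was not tested.

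Single members differed in how they followed the lists. Hist1h1a followed the S-phase list most steeply, from 5.28 CPM in the bottom to 78.9 CPM in the top quartile of control. Hist1h4d was level across that list (0.03) and steep across the G2/M list, from 33.9 to 443 CPM. Hist1h2ab went from 2.89 to 158 CPM and Hist1h3c from 5.91 to 279 CPM over the G2/M quartiles of control. Hist1h1b went from 380 to 1146 CPM over the S-phase quartiles and from 53.5 to 1080 CPM over the G2/M quartiles. Across the G2/M list, 58, 56, 59 and 57 of the 61 members were higher in the top than in the bottom quartile of the 4 libraries, where 15.2%, 16.3%, 9.76% and 14.6% of all genes were. Across the S-phase list 28, 27, 55 and 43 of the 61 were, where 44.1%, 42.6%, 50.2% and 33.9% of all genes were. In control and Mll3SI the members were thus near all genes on that list, with medians of 0.47 and 0.46 against 0.37 and 0.34.
Hist1h2bc was the exception in each library. It was lower in the top than in the bottom G2/M quartile. Its bottom quartile held 64.5, 65.9, 36.6 and 87.9 CPM and its top quartile 21.8, 27.0, 23.4 and 43.5 CPM. In both quartiles Mll3/4SI was the highest library.

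Genes that serve histone supply stood mostly just below control in Mll3/4SI, where the median of all genes was -0.05, 4.48% were higher and 4.34% lower. Of 20 genes for histone mRNA processing and transcription (among them Slbp, Npat, Casp8ap2 and Lsm11), 0 were higher and 0 were lower in Mll3/4SI, and 19 stood below control with a median of -0.15. Of 16 histone chaperone and acetylation genes (such as Chaf1a, Asf1b and Nasp), 16 stood below control, with a median of -0.14 and 0 past the fold. Among 11 replication-independent variants, most of which are made through the cell cycle from polyadenylated mRNAs, 9 stood below control. H1fx, H2afy and H2afy2 were lower. The lists overlap, since the variant Cenpa is also a G2/M list gene and the chaperone gene Chaf1b also an S-phase list gene. Of the 30 S-phase genes 28, and of the 30 G2/M genes 30, stood below control, again with 0 past the fold. In Mll4SI all 30 S-phase genes stood below control, with a median of -0.36 against -0.13 for all genes, and 1 of them, Pcna, was lower (8.63% of all genes). In erythroid-like cells the G2/M list of Mll3/4SI went the other way, with 29 of 30 genes above control, a median of 0.27 against -0.05 for all genes, and 2 genes, Kif23 and Nusap1, higher (6.54% of all genes).

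Hist1h4m and Hist1h4n stood apart from the other members by which of the pair took the reads. They are H4 copies at chr13:21811746-21812147 (plus strand) and chr13:21831767-21832196 (minus strand), inside an inverted block that also holds Hist1h2bq and Hist1h2ao beside the former, and Hist1h2ap and Hist1h2br beside the latter. Their models of 402 and 430 bases differ by 1 base over 402, G36A counted from the 5′ end with Hist1h4m first, and Hist1h4n runs 28 bases further. The windows at the differing base, in capitals, are:
Hist1h4m: acagttttgtcttcGtcatgtctggtcgtg
Hist1h4n: acagttttgtcttcAtcatgtctggtcgtg
The models end after the stem-loop, in capitals, as follows:
Hist1h4m end: GGCCCTTTTCAGGGCCatc
Hist1h4n end: GGCCCTTTTCAGGGCCatccaattaatcct
Hist1h4m was read from 804, 1, 1019 and 629 UMIs, and Hist1h4n from 835, 1653, 985 and 2198. Mll3SI was nearly without Hist1h4m UMIs. Hist1h4m thus took 49.1% (46.6 to 51.5, exact binomial interval) of the pair's UMIs in control and 0.0605% (0.00153 to 0.336) of them in Mll3SI. Its share was 50.8% (48.6 to 53.1) where Mll4SI was alone, and 22.2% (20.7 to 23.8) in the double. The pair's sum was 12.9, 13.4, 13.7 and 19.9 CPM, so that Mll3SI differed from control in the split and little in the total.

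**Figure D5:**
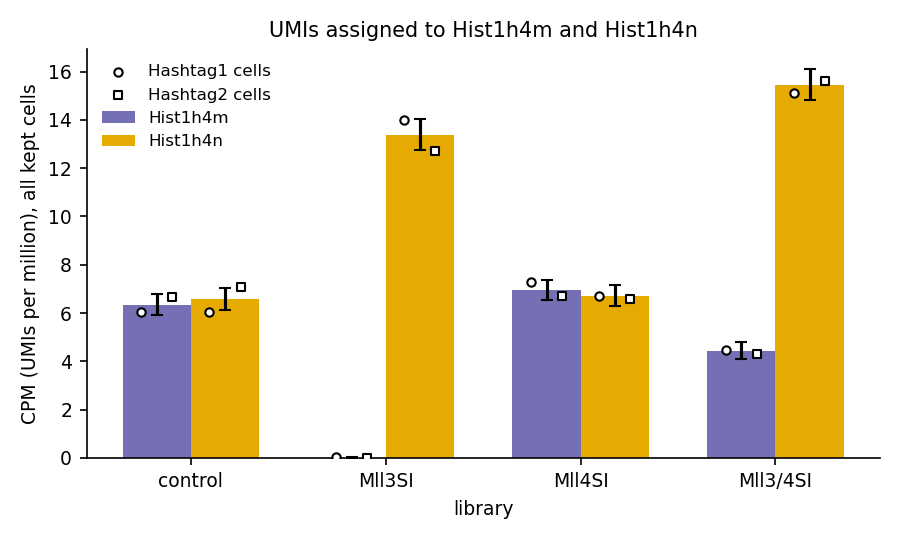
CPM of Hist1h4m and Hist1h4n in each library over all kept cells (bars), with the values of the cells of each hashtag (points). Mll3SI reads the pair as Hist1h4n but for 1 UMI, and Mll3/4SI reads 22.2% of it as Hist1h4m.

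Within classes, Hist1h4m took 51.5%, 0%, 42.9% and 25.6% of the pair in HSC/MPP-like cells (0 of 90 UMIs in Mll3SI, with an exact upper limit of 4.02% and a floor of 3 UMIs at 3.33%), 48.7%, 0.0693%, 51.6% and 22.3% in the granulocyte-monocyte-like class, and 45%, 0%, 44.2% and 15.4% in erythroid-like cells. In the cells of each hashtag it took 22.8% and 21.6% in Mll3/4SI and 0.133% and 0% in Mll3SI. Of the 50-base windows of the 2 models, 89.8% and 85.6% occur in other genes, so the assignment of a read rests on few bases. The cause of the split was not tested.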

How the data were processed

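The libraries were droplet single-cell RNA libraries with antibody barcodes. The authors deposited, per sample, whole-number counts of unique molecular identifiers (UMIs) per gene and cell, made with Cell Ranger 7.1.0 on mm10 per the submitters' processing notes; the annotation version is not given in the sources used here. Cells with at least 500 genes and 1000 UMIs and at most 10% mitochondrial UMIs were kept. Of these, the cells with the highest Scrublet doublet scores were removed, at a set rate of 0.8% per 1000 cells. The 31707 remaining cells were clustered jointly with scanpy 1.11.5 (2000 variable genes, 30 components, 15 neighbours, Leiden resolution 1, 22 clusters). Python 3.11.15, numpy 2.4.6, scipy 1.17.1 and igraph 0.11.9 were used. Histone, marker and list genes were left out of the clustering. A cluster took a name, written "-like", from at least 3 markers of log2 fold 1 or more and a lead of 2 over the next class. UMIs were summed per library and class and divided by all gene UMIs (CPM). Log2 ratios of genes added 1 CPM; ratios of sums and all intervals did not. With 1 library per group no test was made and no animal or replicate is named in the labels. The calculation was tested on simulated data. Positions came from GENCODE M21 (GRCm38), which held 67 of 67 gene identifiers.

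The genes described are the 3 most captured of each family and, for each SI library within the HSC/MPP-like and the granulocyte-monocyte-like class, the 3 with the highest and the 3 with the lowest log2 ratio, 32 genes in all; Hist1h2bb and the genes counted by name under the minimum were named besides after their values were seen. The members and lists were chosen with earlier results of these data known. Alternatives were other scalings, added values, minimums, cell filters, clusterings, hashtag parts and depth windows.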

Additional observations from a re-analysis of the deposited data

Results flagged for a closer look

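The summed histone CPM of Mll4SI went in opposite directions in different cell classes. It stood above control in HSC/MPP-like cells (log2 ratio 0.19) and in erythroid-like cells (0.14), and below control in granulocyte-monocyte-like cells (-0.13) and in B-lymphoid-like cells (-0.16). With 1 library per group, the difference between classes was not tested. Within 2 of the classes the direction changed with the setting or the cells used. In granulocyte-monocyte-like cells Mll4SI stood at -0.013 with median-of-ratios scaling, at 0.084 and 0.097 when weighted to the S-phase and G2/M quartile shares of control, and at 0.36 among cells of 20000 to 40000 UMIs. In erythroid-like cells it stood at -0.0013 and 0.43 in the 2 hashtag parts. In the granulocyte-monocyte-like class, 3 clusters that were nearly all Mll4SI cells hold much of the class in that library. The S-phase list of Mll4SI was below control in all 4 classes, by -0.21 in HSC/MPP-like, -0.07 in erythroid-like, -0.34 in granulocyte-monocyte-like and -0.03 in B-lymphoid-like cells.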

How the results depend on the processing

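Mll3/4SI stood above control in the histone sum of all kept cells and of granulocyte-monocyte-like cells under every alternative run, and in HSC/MPP-like cells under every one but cells of 10000 to 20000 UMIs. Mll3SI stood below control in all kept cells but for 1 depth window, and the Mll4SI direction changed with scaling, depth and the most captured member. Depth windows, shared clusters and the removal of Hist1h2ap were chosen after the data were seen. Of the values of single named members under alternatives, 453 moved beyond their interval, 2235 did not and 0 changed sign from a called value. Of the other values under alternatives, 164 moved, 198 did not and 10 were reversed. No replicate was left out, since each group is 1 library. No paired analysis was possible because each group has 1 library and the labels name no shared animals. The main values stand in the results, and the cause of each change below was not tested. Counts of members past the fold below are given without the share of all genes under the same setting.

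With median-of-ratios scaling, the summed log2 ratio was -0.12 (Mll3SI), 0.089 (Mll4SI) and 0.49 (Mll3/4SI) in all kept cells, 0.49 (Mll3/4SI) in HSC/MPP-like and -0.013 (Mll4SI) and 0.44 (Mll3/4SI) in granulocyte-monocyte-like. Members past the fold were 0 (Mll4SI) lower in all kept cells and 3 (Mll4SI) higher and 1 (Mll4SI) lower in granulocyte-monocyte-like. 3 of the 5 families stood above control in all kept cells (Mll4SI). Taken as the mean over cells, the summed log2 ratio was -0.10 (Mll3SI), -0.29 (Mll4SI) and 0.39 (Mll3/4SI) in all kept cells, 0.38 (Mll3/4SI) in HSC/MPP-like and -0.16 (Mll3SI), -0.41 (Mll4SI) and 0.35 (Mll3/4SI) in granulocyte-monocyte-like. There, 0 of the 5 families stood above control in granulocyte-monocyte-like (Mll4SI). Without doublet removal, the summed log2 ratio was -0.18 (Mll3SI) in all kept cells, 0.15 (Mll4SI) and 0.72 (Mll3/4SI) in HSC/MPP-like and -0.20 (Mll3SI), -0.12 (Mll4SI) and 0.60 (Mll3/4SI) in granulocyte-monocyte-like. Members past the fold were 1 (Mll4SI) higher in all kept cells, 2 (Mll3SI) and 48 (Mll3/4SI) higher and 0 (Mll3/4SI) lower in HSC/MPP-like and 38 (Mll3/4SI) higher in granulocyte-monocyte-like. In Hashtag1 cells, the summed log2 ratio was -0.11 (Mll3SI), -0.14 (Mll4SI) and 0.51 (Mll3/4SI) in all kept cells, -0.17 (Mll3SI), 0.12 (Mll4SI) and 0.50 (Mll3/4SI) in HSC/MPP-like and -0.15 (Mll3SI), -0.20 (Mll4SI) and 0.46 (Mll3/4SI) in granulocyte-monocyte-like. There, the ratio to control in the top quartile was 0.13 (Mll4SI) and 0.58 (Mll3/4SI). In Hashtag2 cells, the summed log2 ratio was -0.20 (Mll3SI), -0.0081 (Mll4SI) and 0.40 (Mll3/4SI) in all kept cells, -0.55 (Mll3SI), 0.25 (Mll4SI) and 0.36 (Mll3/4SI) in HSC/MPP-like and -0.23 (Mll3SI), -0.084 (Mll4SI) and 0.35 (Mll3/4SI) in granulocyte-monocyte-like. There, 2 of the 5 families stood above control in all kept cells (Mll4SI). The ratio to control in the top quartile was 0.36 (Mll4SI) and 0.53 (Mll3/4SI). In cells of 10000 to 20000 UMIs, the summed log2 ratio was -0.43 (Mll3SI), -0.098 (Mll4SI) and 0.35 (Mll3/4SI) in all kept cells, 0.54 (Mll3SI), 0.41 (Mll4SI) and -0.16 (Mll3/4SI) in HSC/MPP-like and -0.53 (Mll3SI), -0.17 (Mll4SI) and 0.32 (Mll3/4SI) in granulocyte-monocyte-like. In cells of 20000 to 40000 UMIs, the summed log2 ratio was 0.0085 (Mll3SI), 0.30 (Mll4SI) and 0.61 (Mll3/4SI) in all kept cells, -0.15 (Mll3SI), 0.21 (Mll4SI) and 0.35 (Mll3/4SI) in HSC/MPP-like and 0.077 (Mll3SI), 0.36 (Mll4SI) and 0.63 (Mll3/4SI) in granulocyte-monocyte-like. In clusters with at least 100 cells of every library, the summed log2 ratio was -0.035 (Mll3SI), -0.24 (Mll4SI) and 0.44 (Mll3/4SI) in all kept cells and 0.0054 (Mll3SI), -0.39 (Mll4SI) and 0.39 (Mll3/4SI) in granulocyte-monocyte-like. Without Hist1h1b, the most captured member, the summed log2 ratio was -0.19 (Mll3SI), 0.0039 (Mll4SI) and 0.54 (Mll3/4SI) in all kept cells, 0.24 (Mll4SI) and 0.52 (Mll3/4SI) in HSC/MPP-like and -0.24 (Mll3SI), -0.063 (Mll4SI) and 0.50 (Mll3/4SI) in granulocyte-monocyte-like. There, the ratio of top to bottom quartile was 0.48 (control), 0.53 (Mll3SI), 1.6 (Mll4SI) and 0.73 (Mll3/4SI). The ratio to control in the top quartile was -0.14 (Mll3SI), 0.35 (Mll4SI) and 0.68 (Mll3/4SI). At a log2 ratio of at least 1, members past the fold were 0 (Mll3SI), 0 (Mll4SI) and 3 (Mll3/4SI) higher and 1 (Mll3SI) and 0 (Mll4SI) lower in all kept cells, 0 (Mll3SI), 1 (Mll4SI) and 3 (Mll3/4SI) higher and 1 (Mll3SI), 0 (Mll4SI) and 0 (Mll3/4SI) lower in HSC/MPP-like and 0 (Mll3SI), 0 (Mll4SI) and 2 (Mll3/4SI) higher and 1 (Mll3SI) and 0 (Mll4SI) lower in granulocyte-monocyte-like. At a minimum of 10 CPM, members past the fold were 1 (Mll3SI) and 0 (Mll3/4SI) lower and 1 (Mll4SI) higher in all kept cells, 0 (Mll3SI), 3 (Mll4SI) and 15 (Mll3/4SI) higher and 4 (Mll3SI), 0 (Mll4SI) and 0 (Mll3/4SI) lower in HSC/MPP-like and 1 (Mll3SI) and 0 (Mll3/4SI) lower in granulocyte-monocyte-like. With 5 CPM added, members past the fold were 1 (Mll3SI) lower and 1 (Mll4SI) and 17 (Mll3/4SI) higher in all kept cells, 0 (Mll3SI) and 2 (Mll4SI) higher and 4 (Mll3SI) and 0 (Mll4SI) lower in HSC/MPP-like and 1 (Mll3SI) and 1 (Mll4SI) lower and 15 (Mll3/4SI) higher in granulocyte-monocyte-like. Without cells above both hashtag thresholds, the summed log2 ratio was -0.073 (Mll4SI) in all kept cells and -0.14 (Mll4SI) in granulocyte-monocyte-like. Members past the fold were 2 (Mll3SI) higher and 2 (Mll4SI) lower in HSC/MPP-like and 2 (Mll4SI) higher in granulocyte-monocyte-like. Without Hist1h2ap, the summed log2 ratio was -0.15 (Mll4SI) and 0.42 (Mll3/4SI) in all kept cells, 0.12 (Mll4SI) in HSC/MPP-like and -0.21 (Mll4SI) and 0.37 (Mll3/4SI) in granulocyte-monocyte-like. At Leiden resolution 2, the summed log2 ratio was -0.44 (Mll3SI), 0.13 (Mll4SI) and 0.77 (Mll3/4SI) in HSC/MPP-like and -0.17 (Mll4SI) and 0.55 (Mll3/4SI) in granulocyte-monocyte-like. Members past the fold were 3 (Mll3SI) and 49 (Mll3/4SI) higher and 22 (Mll3SI), 2 (Mll4SI) and 0 (Mll3/4SI) lower in HSC/MPP-like and 35 (Mll3/4SI) higher in granulocyte-monocyte-like. With cells named by their nearest control cells, the summed log2 ratio was -0.28 (Mll3SI) and 0.64 (Mll3/4SI) in HSC/MPP-like and 0.42 (Mll3/4SI) in granulocyte-monocyte-like. Members past the fold were 41 (Mll3/4SI) higher and 0 (Mll3/4SI) lower in HSC/MPP-like. With a stricter cell filter, the summed log2 ratio was -0.27 (Mll3SI), 0.05 (Mll4SI) and 0.76 (Mll3/4SI) in HSC/MPP-like and -0.23 (Mll3SI), -0.14 (Mll4SI) and 0.60 (Mll3/4SI) in granulocyte-monocyte-like. There, 2 of the 5 families stood above control in HSC/MPP-like (Mll4SI). With cells thinned to 2000 UMIs, the ratio of top to bottom quartile was 0.40 (control), 0.38 (Mll3SI), 1.34 (Mll4SI) and 0.65 (Mll3/4SI). There, the ratio to control in the top quartile was -0.14 (Mll3SI) and 0.58 (Mll3/4SI). With the G2/M list in place of the S-phase list, the ratio of top to bottom quartile was 3.43 (control), 3.41 (Mll3SI), 3.72 (Mll4SI) and 3.22 (Mll3/4SI). There, the ratio to control in the top quartile was -0.16 (Mll3SI), -0.0098 (Mll4SI) and 0.29 (Mll3/4SI).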
